A study of Mus musculus with 3 samples.

Results

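Sterol and fatty acid synthesis genes are the set described here: 34 genes listed by name for the enzymes that build cholesterol and fatty acids from acetyl-CoA, with the factors that control them. Of the 34 symbols, 29 were found among the 20574 gene symbols of the deposited tables, and the other 5 (Hmgcs1, Tm7sf2, Insig2, Acaca and Scd2) were not analysed here. Sc4mol is the older symbol of Msmo1. RNA came from primary mouse macrophages of the peritoneal cavity, labelled wild type and grown in DMEM medium, with 1 library for each of 3 conditions. The first library had no coculture and no stated time. The second was from macrophages given apoptotic cells at a ratio of 5 per macrophage for 5 h, with unengulfed cells rinsed away. The third was from macrophages given LPS, the endotoxin of Gram-negative bacteria, at 100 ng/ml for 5 h. The labels name no strain, age, number of animals or source of the apoptotic cells. With 1 library per condition there is no replicate error and no test between conditions, and treatment cannot be told apart from time or handling in a comparison with the untreated library.

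Cholesterol is made from acetyl-CoA through mevalonate, farnesyl diphosphate, squalene and lanosterol. Fatty acids are made from the same precursor by acetyl-CoA carboxylase and fatty acid synthase, and are then lengthened by ELOVL enzymes and given double bonds by desaturases. Most genes of both routes are targets of the SREBP transcription factors, which SCAP carries out of the endoplasmic reticulum when sterols are low and which INSIG proteins hold back when sterols are high. A macrophage that digests another cell takes in that cell's cholesterol and fatty acids, and LPS signalling is known to reshape lipid synthesis in macrophages.

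Promoters of 23 of the 29 genes were found in a RefSeq table (GRCm38.p6, the build also called mm10), as 250 bases before to 50 bases after each annotated start. The sequences below belong to the enzymes that stood at least 2-fold higher with apoptotic cells than without and are in the table (Sc4mol, Mvd and Idi1), to Cyp51, whose plain fold was 2.0, and to Acat2, the sterol enzyme that differed least between those libraries. Each is written 5′ to 3′ on the strand of the gene. Capitals mark CCAAT or its reverse complement ATTGG, the sequence bound by NF-Y, a factor known to work beside SREBPs at sterol genes.
Sc4mol (chr8:64733529-64733828, minus strand): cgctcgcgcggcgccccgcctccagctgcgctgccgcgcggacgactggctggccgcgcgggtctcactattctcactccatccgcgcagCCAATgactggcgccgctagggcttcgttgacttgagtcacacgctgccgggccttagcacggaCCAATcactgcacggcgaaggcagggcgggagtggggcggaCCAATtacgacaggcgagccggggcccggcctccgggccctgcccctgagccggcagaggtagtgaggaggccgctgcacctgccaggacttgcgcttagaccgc
Mvd (chr8:122443373-122443672, minus strand): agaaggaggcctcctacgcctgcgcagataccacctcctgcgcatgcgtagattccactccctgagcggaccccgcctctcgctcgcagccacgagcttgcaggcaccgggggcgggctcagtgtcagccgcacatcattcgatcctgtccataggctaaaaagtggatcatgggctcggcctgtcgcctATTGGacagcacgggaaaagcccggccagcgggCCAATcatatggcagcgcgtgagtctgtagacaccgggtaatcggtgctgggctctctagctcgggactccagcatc
Idi1 (chr13:8885356-8885655, plus strand): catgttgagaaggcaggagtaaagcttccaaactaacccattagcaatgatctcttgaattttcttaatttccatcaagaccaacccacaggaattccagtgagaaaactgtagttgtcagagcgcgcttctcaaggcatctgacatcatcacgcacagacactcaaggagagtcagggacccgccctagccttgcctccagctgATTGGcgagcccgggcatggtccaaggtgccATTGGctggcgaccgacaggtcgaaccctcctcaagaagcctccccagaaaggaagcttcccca
Cyp51 (chr5:4104648-4104947, minus strand): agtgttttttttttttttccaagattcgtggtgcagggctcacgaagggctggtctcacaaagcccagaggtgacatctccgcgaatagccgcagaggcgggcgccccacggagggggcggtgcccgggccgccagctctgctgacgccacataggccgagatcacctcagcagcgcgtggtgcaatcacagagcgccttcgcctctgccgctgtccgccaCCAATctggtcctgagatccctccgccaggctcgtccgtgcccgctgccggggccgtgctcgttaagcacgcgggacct
Acat2 (chr17:12960676-12960975, minus strand): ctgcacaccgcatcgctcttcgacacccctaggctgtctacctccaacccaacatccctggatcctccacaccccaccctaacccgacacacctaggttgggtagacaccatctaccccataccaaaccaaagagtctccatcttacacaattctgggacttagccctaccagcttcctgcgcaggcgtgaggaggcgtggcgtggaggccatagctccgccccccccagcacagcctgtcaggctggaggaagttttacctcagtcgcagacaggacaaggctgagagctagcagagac

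The CCAAT motif, searched on both strands, was present 3 times in the promoter of Sc4mol, 2 times in those of Mvd and Idi1, 1 time in that of Cyp51 and 0 times in that of Acat2. Over the set, 19 of 23 genes (82.6%) had it in at least 1 promoter, against 42.5% of the 5691 genes in the promoter table that had a mean of at least 1 FPKM in these libraries and 41.1% of all 27025 genes there. The genes without it in any listed promoter were Acat2, Scap, Elovl6 and Fads2. The 5 genes printed were chosen by their fold, so they show no relation between matches and fold, and none was tested. Nsdhl held 4 matches and stood 1.98-fold higher with apoptotic cells, Ebp 2 matches at 1.90-fold and Elovl5 2 matches at 1.34-fold. The E-box CACGTG, which SREBP-1 and other basic helix-loop-helix factors can bind, was found in 6 of 23 genes (26.1%, against 12% of the 5691). The GC box GGGCGG, bound by Sp1, was found in 19 of 23 (82.6%, against 70.2%). The sterol regulatory element in the strict form TCACNCCAC was found in 0 of 23 genes and in 1.1% of the 5691, which says only that these letters are not in these windows. A gene with several annotated starts has several windows, so the shares are per gene. Counted per window, CCAAT was in 20 of 30 (66.7%, against 37.4% of all 32851 windows).

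The values are FPKM, a count of fragments scaled to transcript length and to library size. Going by the smallest steps between low values, 1 FPKM stands for about 6.56 reads untreated, 6.35 with apoptotic cells and 5.88 with LPS. These figures are for 2 kb of transcript left after a fitted length offset of 225, 275 and 250 bases was subtracted. These rough depths give an implied read number for each gene, and the intervals below are exact 95% intervals for a ratio of 2 such numbers, which cover counting error only. Many genes were listed at exactly 0, among them housekeeping genes: Eef1a1 stood at 5641, 0 and 0 FPKM and Ppia at 1841, 0 and 1767 FPKM in the same order, while Actb stood at 1304, 1435 and 1011 FPKM. The glycolytic genes Gapdh (436, 862 and 508 FPKM) and Pgk1 (99.3, 161 and 152 FPKM) and the purine salvage gene Hprt (59.1, 97.8 and 60.0 FPKM) were highest with apoptotic cells. A listed 0 can therefore be a failed estimate. Folds were formed only between libraries above 0, and a 0 is reported as listed. Of the macrophage markers, Csf1r stood at 56.3 FPKM untreated and 185 FPKM with apoptotic cells, and was listed at 0 with LPS, as was Cd14. So 2 of the 4 macrophage markers analysed were above 0 in the LPS library and 4 of 4 in each of the others. Those 2 were under 1 FPKM with LPS: Fcgr1 (0.115, 3.29 and 0.377 FPKM) and Cd163 (0.0625, 0.597 and 0.276 FPKM). The 4 macrophage markers summed to 360, 744 and 0.653 FPKM. Summed levels of 14 T-cell and thymocyte markers were 32.8, 102 and 3.03 FPKM, of 10 neutrophil markers 120, 331 and 504 FPKM, of 9 B-lineage markers 649, 199 and 168 FPKM, of 9 mast cell markers 106, 20.4 and 10.4 FPKM and of 10 mesothelial and fibroblast markers 27.6, 2.58 and 1.13 FPKM. The markers above 0 numbered 5, 12 and 7 of the T-cell list, 7, 9 and 5 of the neutrophil list and 3, 7 and 9 of the B-lineage list. They numbered 7 in each library of the mast cell list, and 8, 7 and 2 of the mesothelial and fibroblast list. Few genes carried most of some sums. S100a8 (48.1, 116 and 222 FPKM) and Lcn2 (64.1, 187 and 272 FPKM) made up most of the neutrophil sum, while Mmp8 stood at 2.48, 16 and 0.548 FPKM and S100a9 and Ngp were listed at 0 with LPS. Ly6d (563, 42.7 and 73.9 FPKM) made up most of the B-lineage sum in the untreated library, where Cd79b (0, 85.6 and 19.1 FPKM) and Ms4a1 (0, 28.9 and 15.9 FPKM) were listed at 0. Cd3d, Cd3e and Cd79a were listed at 0 in the untreated library, Cd79a also with apoptotic cells, and Cd3d and Cd3e also with LPS. The T-cell sum rose with apoptotic cells only through markers listed at 0 untreated, most of all Rag1 (0, 41.2 and 0.679 FPKM). The 5 T-cell markers above 0 untreated were all lower with apoptotic cells, among them Dntt (13.5 and 13.0 FPKM) and Cd3g (12.6 and 10.6 FPKM). The part of these other cells in any difference below was not tested, and in RNA from a mixed preparation fewer cells of a type and less RNA per cell cannot be told apart.

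Of the 29 genes, 11 were above 0 in every library, 17 in 1 or 2 libraries, and Fdft1 in 0. For a count, a gene needed an average over the 3 libraries of 1 FPKM or more, and 25 genes passed. Those below it were Fdft1, Elovl6, Fads2 (mean 0.947 FPKM) and Mvk (mean 0.957 FPKM), with Hsd17b7 (mean 2.02 FPKM) the lowest of those that passed. A gene is counted as higher or lower where log2(FPKM + 1) differs by at least 1 between libraries, which asks for a little more than a plain 2-fold difference.

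**Figure D1:**
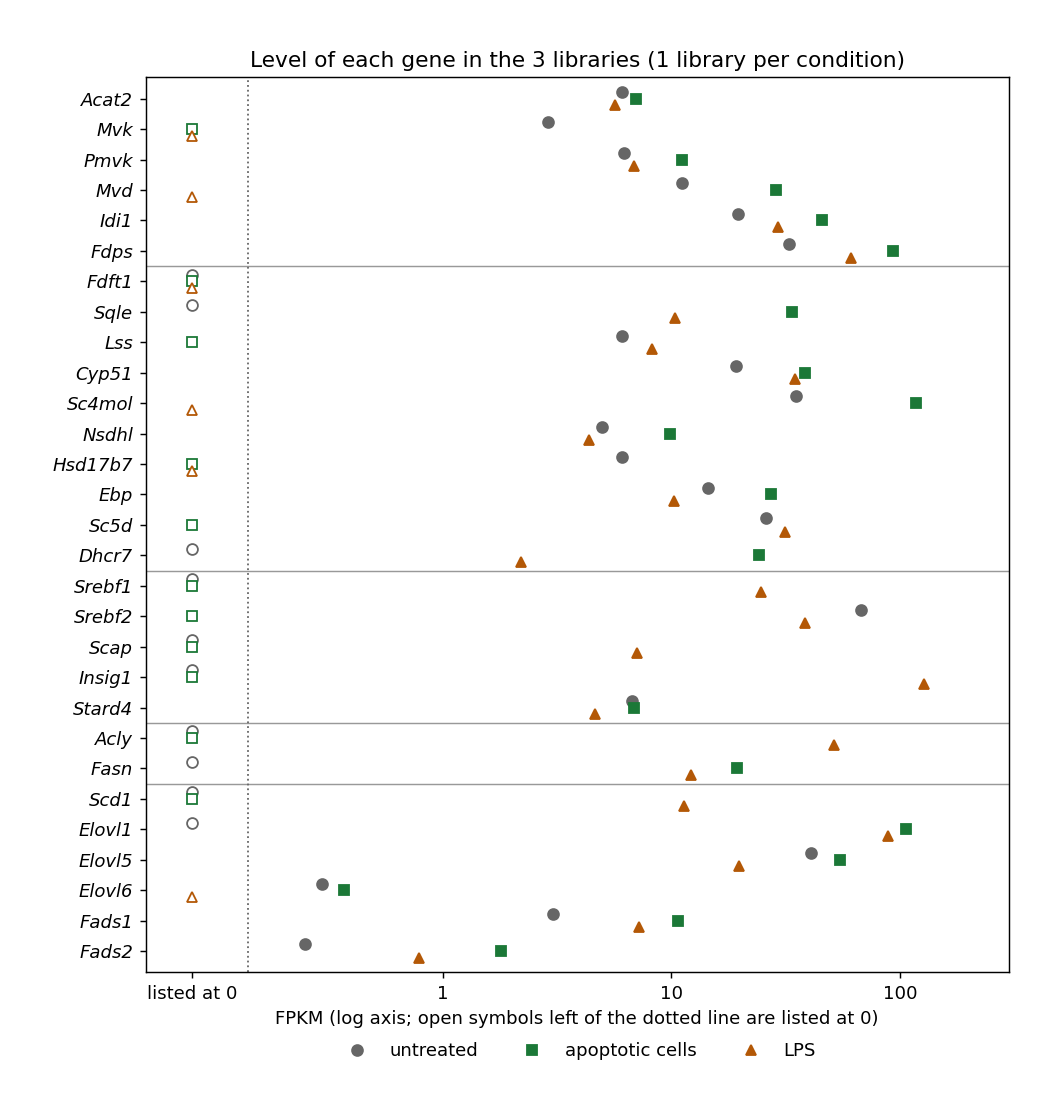
Level of each of the 29 genes in FPKM (log axis) without treatment (circles), with apoptotic cells (squares) and with LPS (triangles), with 1 point per library and grey lines between the groups of roles, from mevalonate enzymes at the top to desaturases at the bottom. Open symbols left of the dotted line are listed at 0. Where all 3 libraries are above 0, the apoptotic-cell square lies farthest right in 11 of 11 genes.

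Apoptotic cells against no treatment is the comparison the study's title points to, the state of macrophages that have engulfed dying cells. The sterol enzymes that could be compared stood higher with apoptotic cells in every case, most of all Sc4mol, Fdps, Mvd and Idi1, and so did the desaturase gene Fads1. Of 12 genes compared, 5 passed the 2-fold threshold upwards and 0 downwards, where 12.4% of all 3369 genes compared were higher and 16.4% lower. All 12 were higher by some amount, against 44.5% of all genes. Their median log2 ratio was 0.92, and that of all genes -0.13. Gapdh, Hprt and Pgk1, which belong to neither route, were 1.98-fold, 1.66-fold and 1.62-fold higher in the same comparison and Actb 1.10-fold, sizes within the range of the set. Whether the differences of the set stand apart from theirs was not tested. Scaling by the median of gene ratios raised the median of all genes by 0.11, and all 12 genes of the set stayed higher under each of the 3 scalings. The call of Fads1 was lost with a pseudocount of 5 (log2 ratio 0.97).

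The 5 enzymes compared from acetyl-CoA to farnesyl diphosphate had a median log2 ratio of 1.19 and held 3 of the 5 genes past 2-fold as well as Acat2, the sterol enzyme with the smallest fold. Fdps, farnesyl diphosphate synthase, stood at 32.6 FPKM untreated, 93.4 FPKM with apoptotic cells and 61.4 FPKM with LPS. The apoptotic-cell library was 2.87-fold higher than the untreated library (95% counting interval 2.31 to 3.58, from about 307 and 116 implied reads). Idi1, the isomerase that makes the allylic substrate of that enzyme, stood at 19.6, 45.8 and 29.2 FPKM in the same order, 2.34-fold higher with apoptotic cells (1.96 to 2.81). Mvd, the decarboxylase that forms isopentenyl diphosphate, stood at 11.1 and 28.6 FPKM, 2.57-fold higher (1.87 to 3.57), and was listed at 0 with LPS. These 3 genes had the largest differences of this segment, and the LPS values of Idi1 and Fdps lay between the other libraries. Pmvk, phosphomevalonate kinase, stood at 6.23, 11.2 and 6.87 FPKM, and its fold of 1.79 had an interval that reached below 1 (0.98 to 3.35, from about 31 and 19 implied reads). Acat2, the thiolase that joins acetyl-CoA units, stood at 6.11, 7.04 and 5.67 FPKM, a fold of 1.15 (0.735 to 1.81), so no difference was detectable at this depth. Mvk, mevalonate kinase, was listed at 2.87 FPKM untreated and at 0 in both treated libraries. In mm10, Fdps lies on chromosome 3 from 89093588 to 89101959, Idi1 on chromosome 13 from 8885501 to 8892451 and Mvd on chromosome 8 from 122433601 to 122443422. The exons of Fdps overlap those of the same-strand model Gm43738 in GENCODE M21, and reads of the 2 may not be separated. Exons of Idi1 overlap the opposite-strand model Gm48574, and those of Lss, Scap and Elovl6 also overlap opposite-strand models.

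The 4 enzymes compared from squalene to cholesterol had a median log2 ratio of 0.92. Sc4mol, the C4-methylsterol oxidase gene, had the largest fold of the set past the filter apart from Fads1: it stood at 35.0 FPKM untreated and 118 FPKM with apoptotic cells, 3.37-fold higher (2.88 to 3.96), and was listed at 0 with LPS. It lies on chromosome 8 from 64718139 to 64733792. Cyp51, lanosterol demethylase, stood at 19.3, 38.5 and 34.7 FPKM, 2.0-fold higher (1.70 to 2.35). Its exons overlap those of Akap9 on the opposite strand, and since the strandedness of the libraries is not given, reads of the pair may not be separated. Nsdhl, which removes a carbon from C4 after the oxidase, stood at 4.97, 9.84 and 4.36 FPKM, 1.98-fold higher (1.27 to 3.14). Ebp, the sterol isomerase, stood at 14.4, 27.4 and 10.3 FPKM, 1.90-fold higher (1.41 to 2.57). Cyp51, Nsdhl and Ebp thus lay just under the threshold on the log2(FPKM + 1) scale, at 0.96, 0.86 and 0.88. All 4 enzymes of this segment that could be compared were higher with apoptotic cells, 1 of them at least 2-fold.

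The other 6 sterol enzymes of that segment could not be compared. Sqle, squalene monooxygenase, a rate-limiting step of the pathway, was listed at 0 untreated and stood at 33.7 FPKM with apoptotic cells. Dhcr7, the reductase of the last step to cholesterol, was listed at 0 and 24.3 FPKM. The opposite listing was seen for Lss, lanosterol synthase (6.09 FPKM untreated), Hsd17b7, a sterol ketoreductase (6.07 FPKM), and Sc5d, the C5 desaturase (25.9 FPKM), all at 0 with apoptotic cells. Fdft1, squalene synthase, was listed at 0 in every library. Its exons overlap those of the cathepsin gene Ctsb on the opposite strand. The zeros thus fell on both sides of this comparison, and no direction is read from them.

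**Figure D2:**
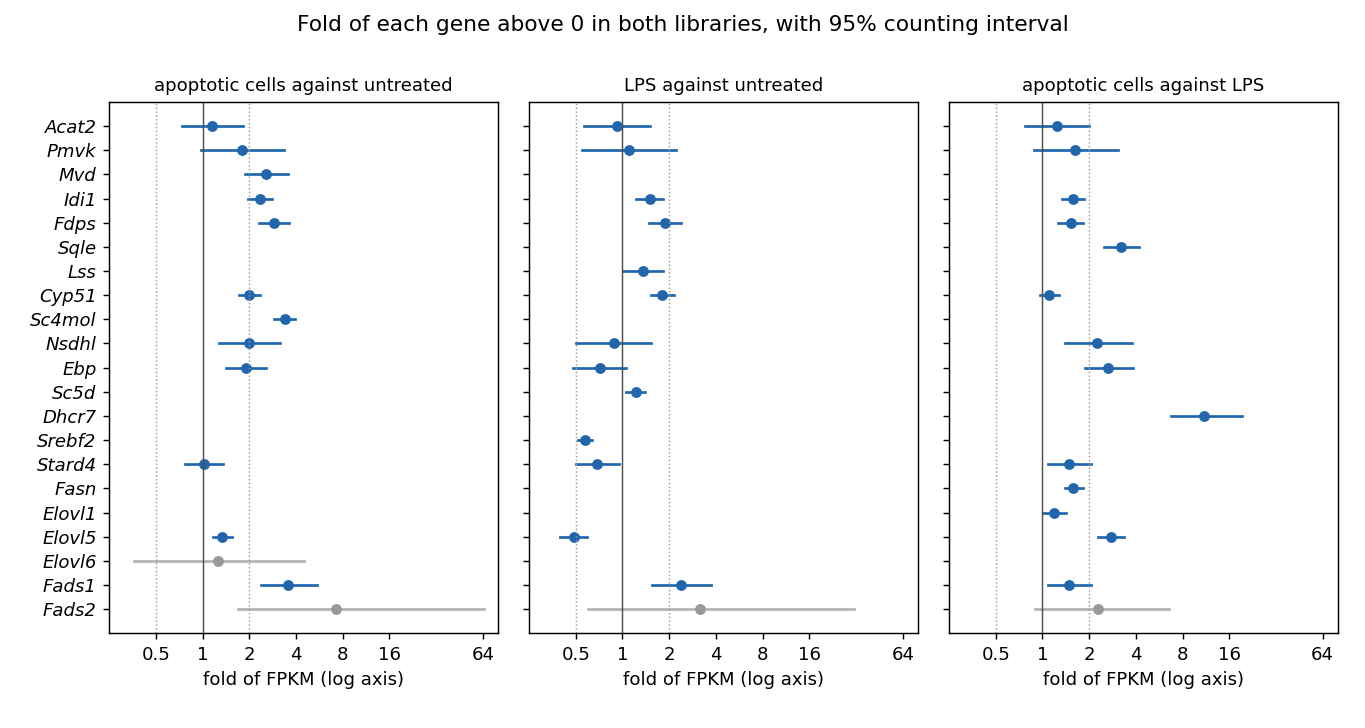
Fold of FPKM (log axis) for each gene above 0 in both libraries of a comparison, with exact 95% intervals that cover counting error only. Grey points rest on fewer than 30 implied reads in all, the solid line marks a fold of 1 and the dotted lines folds of 0.5 and 2. In the left panel no point lies below 1, and the intervals of Acat2, Pmvk, Stard4 and Elovl6 cross it.

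Fatty acid desaturation and elongation genes gave fewer comparisons. Fads1, the delta-5 desaturase that makes arachidonic acid, stood at 3.03 FPKM untreated, 10.7 FPKM with apoptotic cells and 7.21 FPKM with LPS. It was 3.54-fold higher with apoptotic cells than without (2.37 to 5.43), on about 109 and 32 implied reads. Fads2, the delta-6 desaturase of the same route, stood at 0.249, 1.80 and 0.788 FPKM, in the same order of libraries as Fads1. Its fold of 7.24 rests on about 16 and 2 implied reads and has an interval from 1.70 to 64.9, and the gene did not pass the filter. Elovl5, which lengthens polyunsaturated fatty acids, stood at 40.8, 54.6 and 19.8 FPKM, a fold of 1.34 (1.16 to 1.55). Elovl6, the elongase of saturated fatty acids, stood at 0.296 and 0.369 FPKM and was listed at 0 with LPS, on about 6 and 7 implied reads, too few to show a difference. Elovl1, an elongase of very long chains, was listed at 0 untreated and at 106 FPKM with apoptotic cells. Fasn, fatty acid synthase, was listed at 0 and 19.4 FPKM. Both Fads1 (chromosome 19 from 10182888 to 10196877) and Fads2 (chromosome 19 from 10062765 to 10101746) lie in the same cluster of desaturase genes.

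The control genes were mostly listed at 0 with apoptotic cells, and most of those at 0 untreated as well. A listed 0 can be a failed estimate, so nothing is read from these zeros. Srebf2, which encodes the SREBP that favours sterol genes, was listed at 67.4 FPKM untreated and at 0 with apoptotic cells. Srebf1, Scap and Insig1 were listed at 0 in both of these libraries. Stard4, a carrier of cholesterol between membranes, was the exception, at 6.72 and 6.87 FPKM, a fold of 1.02 (0.774 to 1.35). No fold between these libraries can therefore be given for any gene of the SREBP switch itself.

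LPS against no treatment is the inflammatory counterpart. The set divided here: Fads1, Fdps, Cyp51 and Idi1 stood higher with LPS, and Elovl5, Srebf2 and Stard4 lower. Of 13 genes compared, 1 was at least 2-fold higher and 1 lower, where 8.51% of all 3421 genes compared were higher and 26.2% lower. By any amount 7 were higher, against 33.5% of all genes, and 6 lower, against 66.5%. The median log2 ratio was 0.12, and that of all genes -0.40. Scaling the libraries by the median of gene ratios raised the median of all genes by 0.45, and of all 2-fold calls the share that was higher went from 24.5% to 55.0%. Directions of this comparison therefore depend on the scale. Under median-of-ratios scaling 11 of 13 genes were higher, and the median of all genes was 0.046. The share of 33.5% is for the values as deposited and is no background for that count. Acat2, Nsdhl, Ebp and Stard4 changed sign under that scaling, Acat2 also under upper-quartile scaling.

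Among the sterol enzymes, Fdps was 1.88-fold higher with LPS than without (1.49 to 2.39), Cyp51 1.80-fold (1.53 to 2.13) and Idi1 1.49-fold (1.23 to 1.82). Under median-of-ratios scaling these 3 passed the threshold, at log2 ratios of 1.43, 1.35 and 1.09. Lss stood at 6.09 and 8.24 FPKM (1.35-fold, 1.01 to 1.81) and Sc5d at 25.9 and 31.5 FPKM (1.22-fold, 1.06 to 1.4). The enzymes Acat2, Pmvk, Nsdhl and Ebp had folds between 0.712 and 1.10 with intervals that held 1. So 0 of 9 sterol enzymes reached 2-fold in either direction. Beyond them, Fads1 was 2.38-fold higher (1.54 to 3.74). Elovl5 was lower, at 19.8 against 40.8 FPKM, a fold of 0.487 (0.399 to 0.592). That call was lost under both median-of-ratios scaling, at a log2 ratio of -0.47, and upper-quartile scaling, at -0.83. With a pseudocount of 5 neither gene passed, at 0.60 for Fads1 and -0.88 for Elovl5.

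The control genes were most often listed in the LPS library. Srebf2 stood at 67.4 FPKM untreated and 38.4 FPKM with LPS, a fold of 0.571 (0.514 to 0.633) that stayed below 1 under each of the 3 scalings. Insig1, which holds SCAP and SREBPs in the endoplasmic reticulum and is itself an SREBP target, was listed at 128 FPKM with LPS, the highest value of the set in that library, and at 0 in both others. Srebf1 was listed at 24.8 FPKM and Scap at 7.04 FPKM with LPS and at 0 in both others, as were Acly, ATP citrate lyase, which supplies cytosolic acetyl-CoA (51.8 FPKM), and Scd1, the delta-9 desaturase that makes oleic acid (11.3 FPKM). In all, 5 of the 25 genes past the filter (20.0%) were above 0 with LPS only, where 9.28% of 7147 genes past the filter were. Such a gene passed the filter through that library alone, and a listed 0 can be a failed estimate, so nothing is read from the count. None of the 25 (0) was above 0 with apoptotic cells only, where 7.98% of all genes were. The exons of Srebf1 overlap those of Rai1 on the opposite strand. Stard4 was lower with LPS, at 4.63 against 6.72 FPKM (0.690-fold, 0.5 to 0.946).

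Apoptotic cells against LPS sets the treated libraries against each other, both at 5 h. It could be formed for more of the set. Dhcr7, Sqle, Elovl5, Ebp and Nsdhl stood at least 2-fold higher with apoptotic cells. Those are 5 of 14 genes compared, with 0 lower, where 15.7% of all 4599 genes compared were higher and 5.54% lower. All 14 were higher by some amount, against 69.6% of all genes, and the median was 0.63 against 0.32. Median-of-ratios scaling lowered the median of all genes by 0.34 and took the share of 2-fold calls that were higher from 73.9% to 47.6%. Under it Acat2, Cyp51 and Elovl1 changed sign. The 2-fold call was kept by 3 genes, Sqle, Dhcr7 and Elovl5, with Ebp at 0.94 and Nsdhl at 0.66. Of all genes 8.94% were called higher under that scaling. Nsdhl also fell short under upper-quartile scaling (0.90) and with a pseudocount of 5. This comparison and the first share the apoptotic-cell library, so they are not independent.

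The 2 largest folds were those of Dhcr7 and Sqle, both enzymes of the segment from squalene to cholesterol. Dhcr7 had a level of 24.3 FPKM after apoptotic cells and of 2.21 FPKM after LPS, 11-fold higher (6.70 to 19.3, from about 196 and 17 implied reads). It lies on chromosome 7 from 143823145 to 143848410. Sqle stood at 33.7 and 10.4 FPKM, 3.23-fold higher (2.50 to 4.22), and lies on chromosome 15 from 59315077 to 59331192. Ebp was 2.67-fold higher (1.88 to 3.83) and Nsdhl 2.25-fold (1.39 to 3.76). The 5 enzymes compared between squalene and cholesterol had a median log2 ratio of 1.33, and the 4 from acetyl-CoA to farnesyl diphosphate of 0.61. Of the 5 compared between squalene and cholesterol, Cyp51 had the smallest fold, at 38.5 and 34.7 FPKM (1.11-fold, 0.965 to 1.28). Fdps, Idi1 and Pmvk lay 1.52-fold to 1.62-fold higher with apoptotic cells, and the interval of Pmvk held 1.

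On the fatty acid side, Fasn had a level of 19.4 FPKM after apoptotic cells and of 12.2 FPKM after LPS, 1.59-fold higher (1.39 to 1.81). Elovl5 was 2.75-fold higher (2.28 to 3.34), on about 434 and 148 implied reads. Fads1 was 1.49-fold higher (1.09 to 2.05), and Elovl1, at 106 and 88.9 FPKM, 1.2-fold (1.01 to 1.41). The exons of Elovl1 overlap those of Cdc20 on the opposite strand.

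**Figure D3:**
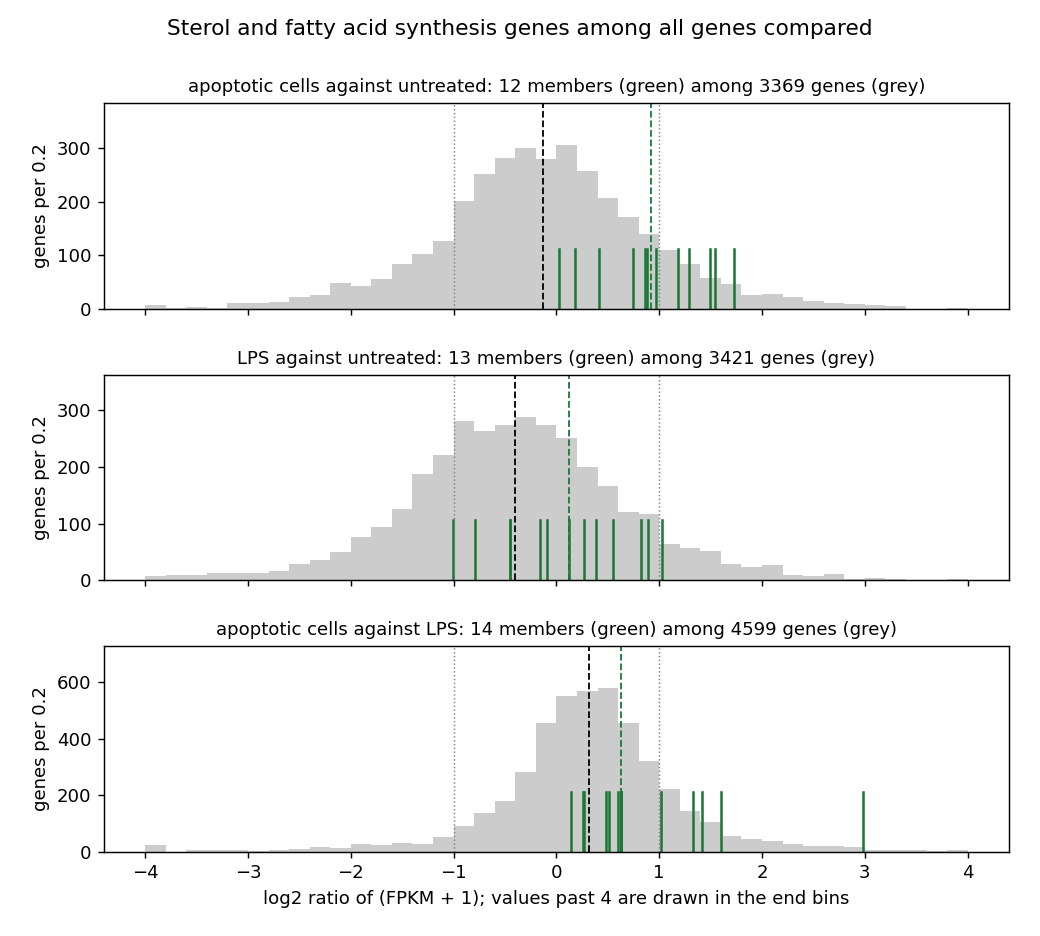
Log2 ratios of (FPKM + 1) for all genes above 0 in both libraries with a mean of at least 1 FPKM (grey bars, genes per bin of 0.2) and for the sterol and fatty acid genes (green lines), by comparison. Dashed lines mark the medians of all genes (black) and of the set (green), dotted lines a difference of 2-fold on that scale. The green median lies right of the black one in each panel, at 0.92 against -0.13, 0.12 against -0.40 and 0.63 against 0.32.

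Across the 3 libraries, the 10 genes above 0 throughout and past the filter shared a feature: the apoptotic-cell library was the highest for 10 of 10, where it was for 35.2% of all 2891 such genes. Fads2, below the filter, had the same place. Under median-of-ratios scaling Acat2 and Cyp51 were highest with LPS instead, which left 8 of 10, against 29.7% of all such genes. Under the other scalings it was 10 of 10, against 33.8% with upper-quartile and 36.1% with common-sum scaling. The lowest library differed. Pmvk, Idi1, Fdps, Cyp51 and Fads1 were lowest untreated, an order held by 16.2% of all genes, and Acat2, Nsdhl, Ebp, Stard4 and Elovl5 were lowest with LPS, an order held by 19.0%. Neighbouring values did not differ beyond counting error for Acat2 in any pair, for Pmvk in any pair, for Nsdhl and Ebp between LPS and no treatment, for Stard4 between apoptotic cells and no treatment and for Cyp51 between the treated libraries. Summed over these 10 genes, the level was 154 FPKM untreated, 305 FPKM with apoptotic cells and 184 FPKM with LPS.

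Other genes of these routes, from a list made for their function, were compared in the same way. On the sterol side 25 of 32 listed genes were in the files. With apoptotic cells against no treatment, 2 of 8 compared were at least 2-fold higher, 2 lower, and the median was 0.29, beside 12.4% higher, 16.4% lower and -0.13 over all genes. The higher genes were Tmem97, the sigma-2 receptor and an SREBP target (13.1 and 44.9 FPKM, log2 ratio 1.70), and Npc2, which hands cholesterol out of the lysosome (75.1 and 161 FPKM, 1.09). The lower genes were Ch25h, which makes 25-hydroxycholesterol (6.16 and 0.713 FPKM, -2.06), and Mylip, the ubiquitin ligase that degrades the LDL receptor (17.3 and 3.75 FPKM, -1.95). The value of Ch25h with apoptotic cells rests on about 3 implied reads, which leaves its fold against no treatment, 0.116, an interval from 0.0223 to 0.383. With LPS, Ch25h stood at 47.5 FPKM, higher than untreated (2.76), and Mylip at 1.5 FPKM, lower (-2.87). They were the only genes past 2-fold of the 6 compared, whose median was 0.47, beside 8.51% higher, 26.2% lower and -0.40 over all genes. Between the treated libraries 2 of 10 were higher with apoptotic cells, Tmem97 (1.11) and the mitochondrial thiolase gene Acat1 (5.17 and 1.88 FPKM, 1.10), and Ch25h was lower (-4.82, with the same 3 reads below it). Their median was 0.56, and over all genes 15.7% were higher, 5.54% lower and the median 0.32. Of the 21 listed sterol genes past the filter, 7 (33.3%) were above 0 with LPS only, where 9.28% of all genes past the filter were, and here too they passed the filter through that library alone and nothing is read from the count. They were Mbtps1, the protease that cuts SREBPs, Soat1, which esterifies cholesterol, Nr1h3, Rnf139, Ubxn8, Erlin2 and Osbp.

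On the fatty acid side 33 of 41 listed symbols were in the files. The 41 count symbols, since the dehydratase genes were listed under older (Ptpla, Ptplb, Ptplad1, Ptplad2) and newer names (Hacd1, Hacd2, Hacd3, Hacd4). With apoptotic cells against no treatment 5 of 13 compared passed 2-fold upwards and 0 downwards, around a median of 0.40 (all genes 12.4%, 16.4% and -0.13). They were Ptpla, a dehydratase of the elongation cycle (1.69 and 11.7 FPKM, 2.24), its relative Ptplad2 (0.492 and 4.56 FPKM, 1.90), Mid1ip1, an activator of acetyl-CoA carboxylase (18.2 and 45.3 FPKM, 1.27), the malic enzyme gene Me1 (10.4 and 24.2 FPKM, 1.15) and the citrate carrier gene Slc25a1 (16.3 and 35.3 FPKM, 1.07). Ptpla and Ptplad2 rest on about 4 and 3 implied reads untreated, and their folds of 6.94 and 9.29 have intervals from 2.39 to 27.5 and from 2.85 to 47.9. Malic enzyme makes NADPH and the citrate carrier exports citrate, both inputs of fatty acid synthesis. With LPS 3 of 13 were higher than untreated and 0 lower, with a median of 0.61 (all genes 8.51%, 26.2% and -0.40): the ketoreductase gene of elongation Hsd17b12 (56.5 and 189 FPKM, 1.73), the acyl-CoA synthetase gene Acsl4 (19.8 and 59.3 FPKM, 1.53) and Me1 (22.0 FPKM with LPS, 1.02). Between the treated libraries Ptpla (1.47) and the acetyl-CoA synthetase gene Acss1 (3.54 and 0.728 FPKM, 1.39) were higher with apoptotic cells, and Acsl5 was higher with LPS (47.9 and 118 FPKM, -1.28), of 16 compared with a median of 0.13 (all genes 15.7%, 5.54% and 0.32). The LPS values of Ptpla and Acss1 each rest on about 7 implied reads, and their folds of 3.27 and 4.86 have intervals from 1.37 to 9.0 and from 2.14 to 12.9. None of the 20 past the filter (0) was above 0 with LPS only.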

How the data were processed

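The authors deposited 1 table per library with 1 value per gene symbol. Per the submitters' processing notes, cutadapt 1.14, TopHat2 2.1.0, Cufflinks 2.2.1 and Cuffdiff were used with build mm10. The sources used here do not give the options, the annotation or the strandedness. The deposited values were taken as FPKM because Cufflinks is named and the smallest steps scale with transcript length.

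Log2 ratios of (FPKM + 1), which understate differences of low genes, were computed with Python 3.11 and pandas 2.3.3 for genes above 0 in both libraries and with a mean of at least 1 FPKM. Depth was fitted to the steps of low values of genes with 1 transcript, after a length offset of 225, 275 and 250 bases. The implied reads are rough (the mean cosine of the fit was 0.359 to 0.387, where 1 would be exact), use RefSeq-matched GENCODE M21 transcript lengths, and support no count test. Ratios were tested on simulated counts with 1 fixed transcript length. That simulation held no failed estimates and no shift of scale between libraries, so it does not bear on those problems. Named are all members and the other pathway genes past 2-fold, and genes listed with LPS only were added after their values were seen. A few genes of the fixed lists are not reported here, and the lists were summarised without them. Members and lists were chosen with earlier results of these data known. Protein comparisons were planned and not made, since protein sequences were not used here.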

Additional observations from a re-analysis of the deposited data

How the results depend on the processing

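No paired analysis was possible because each condition has 1 library. Of 11 alternatives 9 bear on medians, and under them the medians of the set kept their sign in all 3 comparisons. For apoptotic cells against no treatment the median log2 ratio of 0.92 ranged from 0.75 (a listed 0 as a value) to 1.04 (median-of-ratios scaling). The medians of all genes were 0.13 and -0.03 under those 2 settings. For LPS against no treatment the median of 0.12 moved to 0.60 under median-of-ratios scaling and to 0.015 for genes above 0 in all 3 libraries or with a mean of at least 5 FPKM, so its sign rests on little. The medians of all genes were 0.046, -0.44 and -0.26 in the same order. For apoptotic cells against LPS the median of 0.63 fell to 0.23 under median-of-ratios scaling, and that of all genes from 0.32 to -0.02. Counts of genes at least 2-fold higher or lower moved more, as follows, with the shares of all genes under the same setting in brackets. For apoptotic cells against no treatment 5 of 12 were higher and 0 lower (12.4% and 16.4%). Taking a listed 0 as a value gave 9 higher and 4 lower of 25 (37.5% and 19.3%, neither of which the set exceeded). Genes above 0 in all 3 libraries gave 3 of 10 higher (12.2%), and median-of-ratios scaling 7 of 12 (14.3%). Thresholds of 1.5-fold and 3-fold gave 9 and 1 higher of 12 (22.1% and 5.08%). For LPS against no treatment (1 higher, 1 lower), a pseudocount of 5 gave 0 and 0, median-of-ratios scaling 4 and 0, upper-quartile scaling 2 and 0, a listed 0 as a value 10 and 4, 1.5-fold 3 and 2, and 3-fold 0 and 0. For apoptotic cells against LPS (5 higher, 0 lower), median-of-ratios scaling gave 3 higher, a listed 0 as a value 7 higher and 8 lower, genes above 0 in all 3 libraries 3 higher, 1.5-fold 9 higher and 3-fold 2 higher. The threshold and library restrictions change the counts by construction, and the cause of the other moves was not tested. Other alternatives were a pseudocount of 0.1, no filter, a mean of at least 5 FPKM and a common sum. Among single genes, no called difference changed sign. With 5.88 to 6.56 implied reads per FPKM on 2 kb left after the length offset, values under about 1 FPKM give loose ratios. They rest on few reads, and examples are values of Fads2 and Elovl6 and single values of Ch25h, Ptplad2 and Acss1.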
